A study of Mus musculus with 6 samples.

Results

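The interleukin-1 (IL-1) family genes described here are 10 genes chosen by name: the ligands Il1a, Il1b, Il18 and Il33, the secreted or decoy inhibitors Il1rn, Il18bp and Il1r2, and the receptor genes Il1r1, Il1rap and Il1rl1. All 10 were found by Ensembl identifier among the 35122 genes of the table, and all 10 passed the low-count filter and were tested. The libraries are bulk RNA-seq of adipocytes that floated after collagenase digestion of epididymal fat, taken from male C57BL/6 mice on a chow diet. The 3 control mice carried PU.1 fl/fl alleles, in which loxP sites flank an exon of Spi1, the gene for the ETS transcription factor PU.1. The 3 aPU.1KO mice carried the same floxed alleles and AdipoqCre, a Cre transgene driven by adiponectin gene elements. No Cre-only group was analysed here, so effects of Cre and of the Spi1 deletion cannot be told apart. By their labels the mice were 10 to 11 months old, whereas the study's text describes mice of more than 1 year, and each library came from 1 mouse.

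IL-1 alpha and IL-1 beta signal through a receptor made of IL-1R1 and the shared accessory chain IL-1RAP, which recruits the adaptor MyD88 and leads to NF-kappaB and MAP kinase activity. The signal is held back by the receptor antagonist (Il1rn), which occupies IL-1R1 without recruiting the accessory chain, and by IL-1R2, a decoy that binds ligand but does not signal. IL-18 has its own receptor pair and a soluble inhibitor, the IL-18 binding protein, and IL-33, an alarmin of stromal cells, binds ST2 (Il1rl1) together with IL-1RAP. In fat, macrophages are the classical source of IL-1 beta and of the antagonist, while adipocytes and their progenitors carry the receptor.

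Expression of the IL-1 agonists and of their antagonist was lower in every aPU.1KO library than in any control library, while the level of the receptor gene Il1r1 was nearly the same in both groups. Mean Il1b was 9.84 ± 5.14 TMM-scaled CPM, that is counts scaled to a common library size, in controls (SD, n = 3) and 2.09 ± 0.287 CPM in aPU.1KO mice. Mean Il1rn was 11.6 ± 5.85 CPM and 1.79 ± 0.422 CPM. Mean Il1r1 was 25.7 ± 2.33 CPM and 24.8 ± 1.85 CPM. All levels are TMM-scaled CPM, and log2 fold changes are aPU.1KO over control with their standard error (SE).

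With edgeR's quasi-likelihood test and Benjamini-Hochberg adjustment, none of the 10 genes had an adjusted p under 0.05, against 0.237% of the 13925 genes tested. limma-voom also called 0. At an unadjusted p under 0.05, edgeR had 3 of the 10 lower in aPU.1KO mice (Il1a, Il1b and Il1rn) and 0 higher, where 13.7% of all tested genes were lower and 11.9% were higher. DESeq2, the tool of the study's methods, called Il1b and Il1rn lower at an adjusted p under 0.05 and none higher, with backgrounds of 7.48% lower and 3.51% higher among its genes. Its genes numbered 16684, and among the 13925 that edgeR tested it called 1178 lower and 553 higher. In 5 of the 10 (Il1a, Il1b, Il1rn, Il1r2 and Il33) every aPU.1KO library lay below every control library, and in none did every aPU.1KO library lie above. Over all tested genes those shares were 15.5% and 16.7%. The fitted log2 fold change was negative for 9 of the 10, with a median of -0.74, compared with 0.014 over all tested genes. Because Il1a passed the filter only through its control libraries, these counts and this median describe the genes and are not a test of them.

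**Figure D1:**
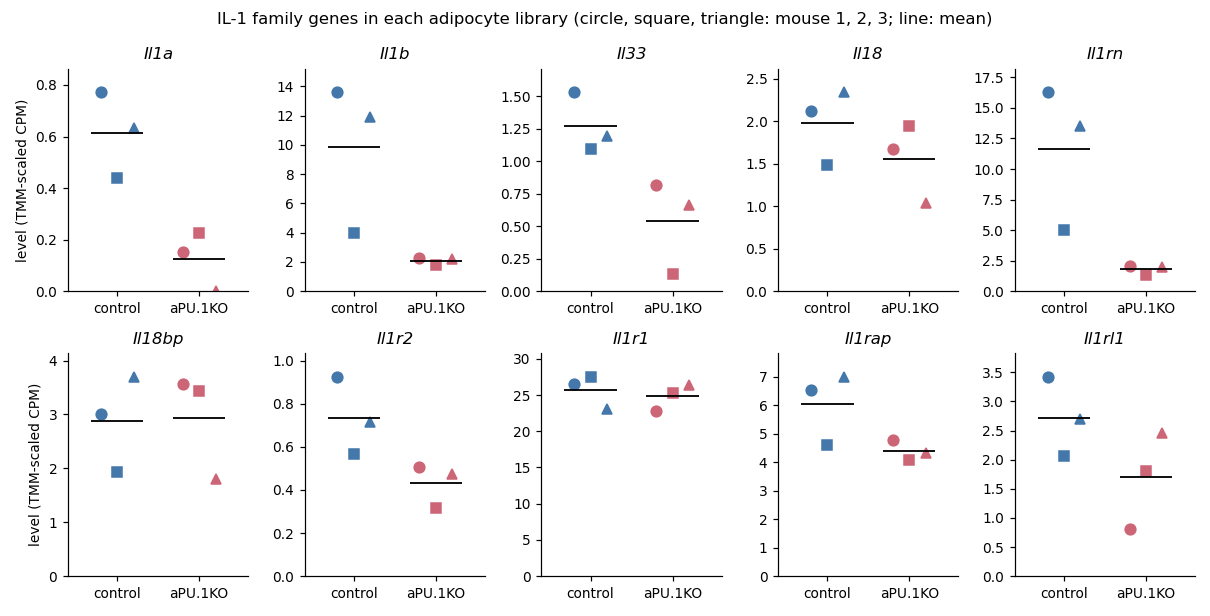
Level of each IL-1 family gene (y axis, TMM-scaled CPM from 0) in the 3 control and 3 aPU.1KO libraries, with a symbol per mouse and a line at the group mean. Il1a, Il1b, Il33, Il1rn and Il1r2 do not overlap between the groups, and Il1r1 runs from 22.8 to 27.4 CPM over all 6 libraries.

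Spi1 itself was measured at 24.3, 6.35 and 26.7 CPM in control mice 1 to 3 and at 3.20, 1.22 and 4.17 CPM in aPU.1KO mice 1 to 3. Its log2 fold change was -2.75 (SE 0.64, adjusted p 0.0788 by edgeR and 7.65e-05 by DESeq2), and gene-level counts include reads outside the floxed exon. The paper describes PU.1 as a master regulator of macrophages and says that such cells might contaminate the adipocyte fraction. The part of macrophage content in the Spi1 difference was not tested. Total counts were 22770714 to 69283842 in controls and 20550252 to 24310144 in aPU.1KO mice, so that 3 counts, taken as the floor, equal 0.0413 to 0.152 CPM. The fraction was not adipocytes alone. The summed level of 16 macrophage markers was 1609, 536 and 1538 CPM in controls and 364, 296 and 357 CPM in aPU.1KO mice, without overlap. At an unadjusted p under 0.05, 13 of those 16 markers were lower in aPU.1KO mice, against 13.7% of all tested genes, and no marker was higher. The groups overlapped for the others, Cd163 (log2 fold change 0.29), Mertk (0.056) and Lyve1 (-0.25). Summed adipocyte markers were 43143 to 47072 CPM and 53020 to 61751 CPM, higher in every aPU.1KO library, although 1 of the 12, Lep, was at 4551 to 5029 CPM in controls and 1565 to 3949 CPM in aPU.1KO mice. Of the other lists, summed levels of markers of neutrophils (19.2 to 39.7 CPM and 11.8 to 18.4 CPM), monocytes and dendritic cells (48.5 to 125 and 25.9 to 41.7), mast cells (19.0 to 23.8 and 8.76 to 15.9), T, NK and innate lymphoid cells (8.80 to 31.1 and 3.25 to 5.45), and progenitors and fibroblasts (1535 to 2050 and 803 to 1139) also lay lower without overlap. So did those of hepatocytes (35.7 to 60.0 CPM and 16.4 to 23.0 CPM), a sum mostly of Alb (mean 34.7 CPM and 19.0 CPM). Of the 8 tested hepatocyte markers, 6 reached the filter's minimum of 0.433 CPM in no aPU.1KO library and so passed it only through the controls. The neutrophil sum was mostly S100a8 (17.5 to 35.2 CPM and 9.94 to 16.7 CPM), and Retnlg was at 0 in every library. Kit was the largest part of the mast cell sum, and its groups overlapped (11.7 to 16.4 CPM and 7.29 to 12.6 CPM). Of the 4 tested mast cell markers, 0 lay lower without overlap. In bulk samples, fewer cells of a type and less RNA per cell cannot be told apart.

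Windows of 250 bases before to 50 bases after the annotated start were taken from RefSeq (GRCm38.p6) for all 10 genes, 15 windows in all. Those of Il1b and Il1rn, the genes with the clearest difference, and of Il1r1, the receptor gene that hardly differed, are printed 5′ to 3′ on the gene's strand because PU.1, like other ETS factors, binds a GGAA core. Capitals mark GGAA and its reverse complement TTCC. The windows are chr2:129371090-129371389 (minus strand) for Il1b, chr2:24336610-24336909 and chr2:24345121-24345420 (plus strand) for a pair of Il1rn starts, and chr1:40224830-40225129 (plus strand) for 1 of the Il1r1 starts.
Il1b: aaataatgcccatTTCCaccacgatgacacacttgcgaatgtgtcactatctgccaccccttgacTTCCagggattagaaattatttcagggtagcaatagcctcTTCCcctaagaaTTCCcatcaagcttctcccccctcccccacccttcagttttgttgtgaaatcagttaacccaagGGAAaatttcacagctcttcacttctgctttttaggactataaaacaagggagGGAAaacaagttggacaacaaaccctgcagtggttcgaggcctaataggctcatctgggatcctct
Il1rn, upstream start: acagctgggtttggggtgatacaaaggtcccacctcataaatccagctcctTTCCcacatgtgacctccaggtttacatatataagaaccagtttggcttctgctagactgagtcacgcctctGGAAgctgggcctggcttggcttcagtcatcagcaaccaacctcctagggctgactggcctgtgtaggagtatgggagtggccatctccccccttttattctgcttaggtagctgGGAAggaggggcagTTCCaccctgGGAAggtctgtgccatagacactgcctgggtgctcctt
Il1rn, downstream start: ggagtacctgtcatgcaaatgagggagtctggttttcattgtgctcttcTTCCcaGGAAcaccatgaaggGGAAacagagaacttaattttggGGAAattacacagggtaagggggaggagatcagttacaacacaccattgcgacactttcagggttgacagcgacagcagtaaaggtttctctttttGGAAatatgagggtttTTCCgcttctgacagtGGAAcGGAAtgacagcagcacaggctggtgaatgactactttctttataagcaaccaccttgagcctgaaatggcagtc
Il1r1: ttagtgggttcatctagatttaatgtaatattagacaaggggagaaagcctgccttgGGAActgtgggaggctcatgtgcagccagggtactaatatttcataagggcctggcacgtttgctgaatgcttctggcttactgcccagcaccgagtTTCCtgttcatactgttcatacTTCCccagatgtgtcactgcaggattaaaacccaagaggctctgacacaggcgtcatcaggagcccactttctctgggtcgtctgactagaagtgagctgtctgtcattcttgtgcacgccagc
The Il1b window held 6 GGAA cores on either strand, a number that 15.7% of all 32851 promoter windows reach or pass. The Il1rn windows held 5 and 8, which 28.6% and 3.72% of all windows reach or pass, and the other Il1rn window, which overlaps the downstream one, held 6. The printed Il1r1 window held 3, which 66.3% reach or pass, and a second Il1r1 window (chr1:40266336-40266635, plus strand), not printed, held 2, which 84.6% reach or pass. The count did not sort the genes by their difference between groups: it was 5 for Il1rap and for Il18bp, whose groups overlapped, 4 for Il1a and for Il1r2, whose groups did not, 6 and 4 for Il33, 4 and 5 for Il1rl1, and 2 for Il18. A core alone is common, since 96% of all windows held at least 1 and the median was 3. The longer sequence GAGGAA, searched on both strands and containing a GGAA core, was found in 3 of the 15 windows (20%), those of Il1a, Il33 and Il1rl1, and in 28.3% of all windows. No window of Il1b, Il1rn or Il1r1 held it. These matches describe the letters in the windows only.

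Il1b (ENSMUSG00000027398) lies on chromosome 2 from 129364570 to 129371139 on the minus strand (GRCm38) and encodes IL-1 beta, the secreted agonist that is made as a precursor and cut by caspase-1. Its level was 13.6, 3.98 and 11.9 CPM in control mice 1 to 3, from 987, 91 and 301 counts. In aPU.1KO mice 1 to 3 it was 2.29, 1.76 and 2.23 CPM, from 45, 39 and 47 counts. The aPU.1KO mice lay close together below all controls, and control mouse 2 was the control nearest to them. The log2 fold change was -2.24 (SE 0.46, 95% confidence interval -3.33 to -1.15, edgeR adjusted p 0.0764). DESeq2 gave -2.25 with an adjusted p of 5.32e-05, and over all alternatives the adjusted p ran from 5.32e-05 to 0.313. Without control mouse 2 the edgeR log2 fold change was -2.62 and the adjusted p 0.00278, in a fit that called 1193 genes in all against 33 with every mouse. Without control mouse 1 they were -1.95 and 0.313, in a fit that called 0.

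Il1a (ENSMUSG00000027399) is the neighbouring ligand gene on chromosome 2, from 129299610 to 129309972 on the minus strand, and encodes IL-1 alpha, which is active as a precursor and is released from damaged cells. It was scarce, at 0.771, 0.438 and 0.635 CPM in controls (56, 10 and 16 counts). In aPU.1KO mice it was 0.152, 0.226 and 0 CPM (3, 5 and 0 counts). Libraries 1 and 3 of the aPU.1KO mice were thus at or under the floor of 3 counts, and no aPU.1KO library reached the filter's minimum of 0.433 CPM. The fitted log2 fold change of -2.27 (SE 0.72, edgeR adjusted p 0.117, DESeq2 adjusted p 0.0713, 0.0713 to 0.231 over the alternatives) rests on these few counts, and it lay between -3.03 and -1.70 when single mice were left out.

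Il1rn (ENSMUSG00000026981, chromosome 2, 24336853 to 24351494, plus strand) encodes the IL-1 receptor antagonist, and its gene-level count sums secreted and intracellular forms. Control mice 1 to 3 had 16.3, 5.03 and 13.5 CPM (1181, 115 and 341 counts). The aPU.1KO mice had 2.08, 1.31 and 1.99 CPM (41, 29 and 42 counts). As for Il1b, control mouse 2 was the lowest control, and it still lay above every aPU.1KO mouse. The log2 fold change was -2.70 (SE 0.46, 95% confidence interval -3.80 to -1.60, edgeR adjusted p 0.0722). DESeq2 gave an adjusted p of 4.82e-07, and over all alternatives it ran from 4.82e-07 to 0.313. Without control mouse 2 the log2 fold change was -3.07 and the edgeR adjusted p 0.00292, in the fit that called 1193 genes. They were -2.39 and 0.313 without control mouse 1, and -2.59 and 0.229 without control mouse 3.

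Il1b and Il1rn levels stood in the same order as the macrophage marker sums over the 6 libraries, and the part of macrophage content in their difference was not tested. Given per 1000 counts of the 16 macrophage markers, Il1b was 8.45, 7.44 and 7.76 in controls and 6.28, 5.95 and 6.24 in aPU.1KO mice. Il1rn per 1000 marker counts was 10.1, 9.40 and 8.80 in controls and 5.72, 4.42 and 5.57 in aPU.1KO mice. Both stayed lower in every aPU.1KO library, but by far less than their CPM. For Il1a the same ratio overlapped, at 0.413 to 0.817 in controls and 0 to 0.762 in aPU.1KO mice.

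**Figure D2:**
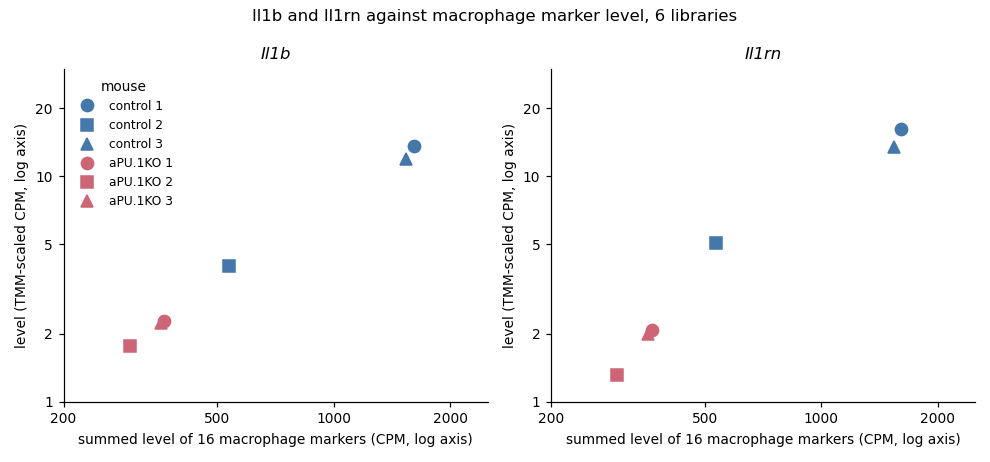
Level of Il1b (left) and Il1rn (right) in CPM against the summed CPM of 16 macrophage markers, both on log axes, with 1 point per library. The aPU.1KO libraries lie at marker sums of 296 to 364 CPM and the controls at 536 to 1609 CPM, with control mouse 2 nearest to the aPU.1KO mice in both panels.

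Taken within each library, the ratio of agonist to antagonist counts does not depend on scaling, and a difference between libraries in such a ratio does not depend on gene length. The log2 ratio of Il1b to Il1rn counts was -0.26, -0.34 and -0.18 in controls and 0.13, 0.43 and 0.16 in aPU.1KO mice. All aPU.1KO mice had a higher ratio than all controls. Its sign is not an order of levels, since the merged exons of Il1rn span 5535 bases and those of Il1b 1907, and per kilobase Il1b lay above Il1rn in all 6 libraries. The difference of 0.50 on the log2 scale had an exact two-sided permutation p of 0.1, the smallest that 3 against 3 libraries can give (Benjamini-Hochberg adjusted p 0.175 over 7 ratios). Leaving out single mice kept it between 0.41 and 0.55. The ratio of Il1a to Il1rn, which needed 0.5 added to the counts because 1 library had none, differed by -0.06 on the log2 scale (exact permutation p 0.9) with overlapping groups.

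Il1r1 (ENSMUSG00000026072, chromosome 1, 40225080 to 40317257, plus strand), the signaling receptor for both IL-1 ligands, was measured at 26.5, 27.4 and 23.0 CPM in controls. In aPU.1KO mice it was 22.8, 25.3 and 26.4 CPM. The groups overlapped, and the log2 fold change was -0.05 with a 95% confidence interval of -0.30 to 0.20 (SE 0.10, edgeR adjusted p 0.794). This interval was the narrowest of the 10, and Il1r1 had 448 counts or more in every library. Per 1000 counts of progenitor and fibroblast markers, Il1r1 was 12.8 to 17.9 in controls and 23.2 to 28.9 in aPU.1KO mice. Per 1000 adipocyte marker counts it was 0.520 to 0.615 in controls and 0.402 to 0.498 in aPU.1KO mice. Both ratios separated the groups, in opposite directions, as the marker sums themselves did.

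Set against the receptor, ligand and antagonist mRNA were both lower. The log2 ratio of Il1b to Il1r1 averaged -1.57 ± 1.06 in controls and -3.57 ± 0.26 in aPU.1KO mice (SD, n = 3, exact permutation p 0.1). For Il1rn to Il1r1 the averages were -1.31 ± 0.99 and -3.82 ± 0.42 (exact permutation p 0.1). Neither ratio overlapped between the groups, and both adjusted p-values over the 7 ratios were 0.175. This pair of ratios was chosen after their values were seen, so their p-values restate the difference and do not test it.

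Il1r2 (ENSMUSG00000026073, chromosome 1, 40074079 to 40125231, plus strand), the decoy receptor, was near the detection limit with 0.923, 0.569 and 0.714 CPM in controls. The aPU.1KO mice had 0.508, 0.316 and 0.474 CPM, from 10, 7 and 10 counts. Every aPU.1KO library lay below every control library, but the log2 fold change of -0.79 (SE 0.36) had an edgeR adjusted p of 0.223 and a confidence interval of -1.66 to 0.07. Relative to macrophage markers the order was the other way, with 0.464 to 1.06 per 1000 marker counts in controls and 1.07 to 1.40 in aPU.1KO mice. That order is fragile, since control mouse 2 (1.063, from 13 counts) and aPU.1KO mouse 2 (1.067, from 7 counts) were almost equal. The log2 ratio of Il1r1 to Il1r2 was 5.15 ± 0.39 in controls and 5.87 ± 0.42 in aPU.1KO mice (SD, n = 3, exact permutation p 0.2, adjusted 0.28), with overlap.

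Il1rap (ENSMUSG00000022514, chromosome 16, 26581704 to 26730117, plus strand), the accessory chain shared by the IL-1 and IL-33 receptors, was measured at 6.53, 4.60 and 6.98 CPM in controls. The aPU.1KO mice had 4.78, 4.07 and 4.31 CPM. Control mouse 2 overlapped the aPU.1KO mice, and the log2 fold change was -0.46 (SE 0.20, 95% confidence interval -0.95 to 0.02, edgeR adjusted p 0.207). Its level per 1000 macrophage marker counts was 4.06 to 8.58 in controls and 12.1 to 13.7 in aPU.1KO mice.

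**Figure D3:**
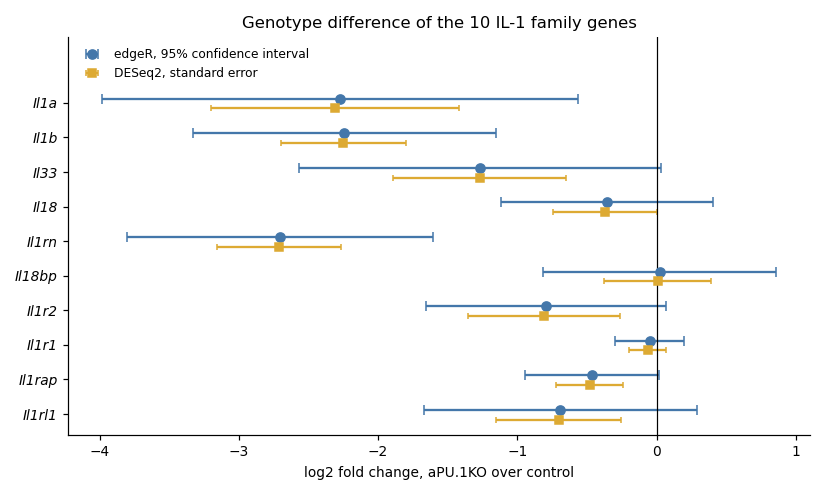
Log2 fold change (x axis, aPU.1KO over control) of the 10 IL-1 family genes from edgeR, with 95% confidence intervals, and from DESeq2, with standard errors. The edgeR intervals of Il1a, Il1b and Il1rn lie wholly below 0, and that of Il1r1 runs from -0.30 to 0.20.

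The groups overlapped for both genes of the IL-18 arm. Il18 (ENSMUSG00000039217, chromosome 9, 50554827 to 50581840, plus strand), whose product is also cut by caspase-1, was at 2.12, 1.49 and 2.34 CPM in controls and at 1.68, 1.94 and 1.04 CPM in aPU.1KO mice. No order by genotype was seen (log2 fold change -0.36, SE 0.32, 95% confidence interval -1.11 to 0.40, edgeR adjusted p 0.519), and the log2 fold change was -0.56 without aPU.1KO mouse 2 and -0.13 without aPU.1KO mouse 3. Il18bp (ENSMUSG00000070427, chromosome 7, 102014885 to 102018690, minus strand), which encodes the soluble IL-18 inhibitor, was at 3.02, 1.93 and 3.69 CPM in controls and at 3.56, 3.44 and 1.80 CPM in aPU.1KO mice. Its log2 fold change was 0.02 with a 95% confidence interval of -0.82 to 0.86 (edgeR adjusted p 0.974), and its sign changed with the processing. An exon of Numa1 overlaps Il18bp on the opposite strand by 80 bases, and since strand use in counting is not given in the sources used here, reads of that stretch may be shared. The same limit holds for opposite-strand exon overlaps of Il1a with Gm14023 (222 bases), Il1b with Il1bos (25 bases) and Il1rap with Gm20319 (552 bases).

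Within libraries, the log2 ratio of Il18 to Il18bp was -0.51, -0.37 and -0.66 in controls and -1.08, -0.82 and -0.79 in aPU.1KO mice. All aPU.1KO mice had a lower ratio than all controls. Per kilobase Il18 lay above Il18bp in all 6 libraries, the merged exons of Il18bp (3026 bases) being longer than those of Il18 (1031 bases). The difference was -0.39 on the log2 scale (exact permutation p 0.1, adjusted 0.175), and -0.46 to -0.29 when single mice were left out.

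Il33 (ENSMUSG00000024810, chromosome 19, 29925114 to 29960718, plus strand), a nuclear alarmin of mesothelial, endothelial and progenitor cells, had 1.53, 1.09 and 1.19 CPM in controls. In aPU.1KO mice it had 0.813, 0.136 and 0.663 CPM, from 16, 3 and 14 counts. All aPU.1KO libraries lay below all controls, and aPU.1KO mouse 2 was at the floor of 3 counts. The log2 fold change was -1.27 (SE 0.55, 95% confidence interval -2.56 to 0.03, edgeR adjusted p 0.204, DESeq2 adjusted p 0.187, 0.136 to 0.551 over the alternatives). Without single mice it ran from -1.69 to -0.80. Per 1000 progenitor and fibroblast marker counts, Il33 overlapped between the groups, at 0.663 to 0.746 in controls and 0.155 to 1.01 in aPU.1KO mice.

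Il1rl1 (ENSMUSG00000026069, chromosome 1, 40429570 to 40465415, plus strand) encodes ST2, and its count sums the membrane receptor of mast cells and lymphoid cells with the soluble decoy form. Controls had 3.42, 2.06 and 2.70 CPM and aPU.1KO mice 0.813, 1.81 and 2.46 CPM. The groups overlapped through aPU.1KO mouse 3 and control mouse 2 (log2 fold change -0.69, SE 0.41, 95% confidence interval -1.67 to 0.29, edgeR adjusted p 0.335). The log2 fold change was -0.37 without aPU.1KO mouse 1 and -1.05 without aPU.1KO mouse 3. Per 1000 mast cell marker counts, Il1rl1 was 109 to 152 in controls and 92.5 to 281 in aPU.1KO mice. The log2 ratio of Il33 to Il1rl1 differed by -0.79 with an exact permutation p of 0.7, and its sign turned when aPU.1KO mouse 2 was left out.

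Compared per kilobase of merged exons, the order of the genes differed between the groups. In controls the mean levels were 5.16 ± 2.69 CPM per kb for Il1b, 4.04 ± 0.37 for Il1r1, 2.10 ± 1.06 for Il1rn, 1.92 ± 0.43 for Il18 and 0.951 ± 0.29 for Il18bp (SD, n = 3). Il1rap, Il33, Il1rl1, Il1r2 and Il1a followed at 0.531 down to 0.311 CPM per kb. Among neighbours in that order, the control ranges did not overlap between Il1r1 and Il1rn, Il18 and Il18bp, and Il18bp and Il1rap, whereas the other neighbours overlapped. In aPU.1KO mice Il1r1 was the highest at 3.90 ± 0.29 CPM per kb, followed by Il18 at 1.51, Il1b at 1.10 and Il18bp at 0.969, and Il1rn stood at rank 6 with 0.324. With the longest transcript as the length, Il1rn ranked above Il1r1 in controls, Il1rap (1.34 CPM per kb) above Il18bp (1.11), and Il1r2 moved from rank 9 to rank 7, while Il1b stayed highest.

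**Figure D4:**
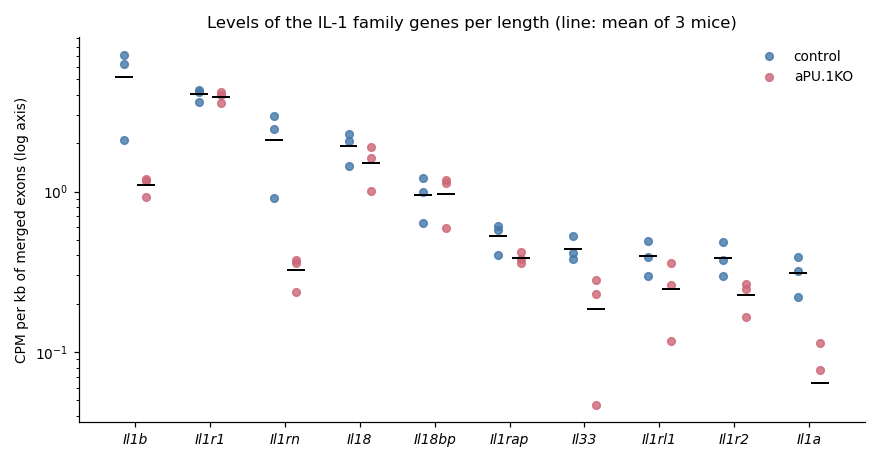
Level per kilobase of merged exons (y axis, CPM per kb, log axis) of each IL-1 family gene in 3 control and 3 aPU.1KO libraries, with lines at the group means. The Il1a library at 0 in aPU.1KO mice is not drawn but is in its mean. Il1b has the highest control mean (5.16) and Il1r1 the highest aPU.1KO mean (3.90).

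The genes whose log2 CPM was most like that of each IL-1 family gene over the 6 libraries were looked up, as a description. The search covered tested genes with an average log2 CPM of at least 1. These libraries share 1 split between groups, so genes that differ between the groups resemble each other. Il1b and Il1rn shared their nearest gene, C5ar1, a complement receptor of myeloid cells (Pearson r 0.998 and 0.997). Pik3cd and Tmem8 followed for Il1b, and Man1c1 and Apobr for Il1rn. Il1a was most like Ptgs2, which encodes COX-2 (r 0.993), then Rpl29 and Ripk3. Il1r1 was most like Itpripl1 (r 0.979), Acap2 and Ccn2. The nearest genes were Slc29a3, Rpf1 and Racgap1 for Il1r2, Mcm5, Pou2f2 and Gbp2 for Il1rap, and H2-Q5, Atp6ap1 and Adam12 for Il18. They were Lactb, Gm20425 and Agk for Il18bp, Ppip5k2, Tlr3 and Cep162 for Il33, and Gdf10, Lyz1 and Zfp874b for Il1rl1.

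The other genes of the pathway came from 6 lists with 111 genes, of which 87 were tested. By edgeR none had an adjusted p under 0.05, while the unadjusted p was under 0.05 for 22 with a negative and 6 with a positive fold change. Over all tested genes those shares were 13.7% and 11.9%. By DESeq2, 14 of the 87 were lower and 3 higher, where the shares over its genes were 7.48% and 3.51%. The 87 are among the 13925 genes that edgeR tested, of which DESeq2 called 1178 lower and 553 higher. None of the 5 other ligand genes (the IL-36 group and Il1f10) passed the filter. Il1f9, which encodes IL-36 gamma, had 17, 4 and 5 counts in controls and 0, 0 and 2 in aPU.1KO mice, and was named after its values were seen. Of 6 other receptors, 3 were tested and none had an unadjusted p under 0.05. The log2 fold change was -0.96 for Il1rl2, the IL-36 receptor (adjusted p 0.284), -0.43 for Il18rap, the IL-18 accessory chain (0.509), and -0.21 for Sigirr, an inhibitory member (0.819). Il18r1, the IL-18 binding chain, was under the filter with 27, 6 and 16 counts in controls and 8, 9 and 7 in aPU.1KO mice.

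The list of ligand processing and release held inflammasome sensors, caspases, serine proteases and pore-forming proteins. Of its 21 tested genes, edgeR gave an unadjusted p under 0.05 to 12 that were lower and 3 that were higher (median log2 fold change -0.79), against 13.7% and 11.9% of all tested genes. DESeq2 called 5 lower and 2 higher, against 7.48% and 3.51% of its genes. Nlrp1a, one of the 12, passed the filter only through the controls, and Cma1, Mcpt4, Nlrp1b, Nlrp3 and Aim2 reached its minimum in 1 or 2 of the 3 aPU.1KO libraries, so this count and median are a description only. The 12 became 4 without control mouse 1, 6 without control mouse 3, 7 without aPU.1KO mouse 1 and 6 with 10 counts required in every library. Nlrp3, the inflammasome sensor, had 5.40, 1.62 and 3.81 CPM in controls and 0.610, 0.542 and 0.0947 CPM in aPU.1KO mice (log2 fold change -3.13, SE 0.66, adjusted p 0.0775 by edgeR and 0.000130 by DESeq2). Aim2, the DNA sensor, had 4.64, 1.93 and 4.68 CPM and 0.966, 0.407 and 1.47 CPM (log2 fold change -1.99, SE 0.53). Casp1, which cuts both precursors, overlapped, with 35.6, 13.0 and 45.0 CPM in controls and 17.2, 9.22 and 18.0 CPM in aPU.1KO mice (log2 fold change -1.08, SE 0.46, edgeR adjusted p 0.202). Higher in every aPU.1KO library were Prtn3, a neutrophil serine protease (2.34 to 2.76 CPM and 4.01 to 4.75 CPM), and Txnip, an arrestin-like protein that binds thioredoxin (555 to 749 CPM and 849 to 971 CPM). Their log2 fold changes were 0.85 (SE 0.18, DESeq2 adjusted p 0.00438) and 0.42 (SE 0.14, DESeq2 adjusted p 0.0474). Elane, another protease gene of the list, also lay higher in every aPU.1KO library (0.394 to 0.714 CPM and 0.995 to 1.22 CPM, DESeq2 adjusted p 0.156). The macrophage marker sums given above were lower in the same libraries as the sensors, and their part was not tested.

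Genes of signaling from the receptors centred near 0. Of 30 tested, edgeR gave an unadjusted p under 0.05 to 3 that were lower and 1 that was higher, with a median log2 fold change of 0.045, and 14 were negative and 16 positive. Over all tested genes the shares at that p were 13.7% lower and 11.9% higher. DESeq2 called 3 of the 30 lower and 0 higher, against 7.48% and 3.51% of its genes. Map2k6, a kinase upstream of p38, had 6.35 to 7.86 CPM in controls and 3.48 to 5.07 CPM in aPU.1KO mice (log2 fold change -0.82, SE 0.20, adjusted p 0.0808 by edgeR and 0.00571 by DESeq2). Irak4, the kinase that MyD88 recruits, had 13.9 to 15.4 CPM and 8.27 to 11.3 CPM (log2 fold change -0.53, SE 0.15). Map2k3 had 44.5 to 48.8 CPM and 50.9 to 69.2 CPM (log2 fold change 0.35, SE 0.12). Myd88, the adaptor itself, overlapped, with 25.5, 22.6 and 24.9 CPM in controls and 30.4, 48.0 and 20.1 CPM in aPU.1KO mice.

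Of 29 tested genes that IL-1 is known to induce, edgeR gave an unadjusted p under 0.05 to 6 that were lower and 2 that were higher (median log2 fold change -0.17), against 13.7% and 11.9% of all tested genes. DESeq2 called 5 lower and 1 higher, against 7.48% and 3.51% of its genes. The 6 became 10 without control mouse 2, 11 without aPU.1KO mouse 2 and 4 without control mouse 1 or 3. Vcam1, an adhesion molecule, had 43.7, 19.0 and 50.4 CPM in controls and 11.3, 8.50 and 12.9 CPM in aPU.1KO mice (log2 fold change -1.79, SE 0.36, adjusted p 0.0764 by edgeR and 3.79e-05 by DESeq2). Tnf had 9.25, 4.07 and 8.53 CPM and 1.78, 2.94 and 1.99 CPM (log2 fold change -1.71, SE 0.36). The chemokine genes Cxcl1 and Cxcl10 had the largest positive fold changes of the list, with groups that overlapped. Cxcl1 was 79.6 to 96.4 CPM in controls and 211, 519 and 42.0 CPM in aPU.1KO mice, and Cxcl10 was 7.69 to 8.76 CPM and 33.2, 139 and 2.65 CPM. For both, aPU.1KO mouse 2 was the highest and aPU.1KO mouse 3 the lowest of all 6 libraries. Among genes of the cells that IL-33 and IL-18 act on, 4 of 14 were tested. Il2ra, a receptor chain for IL-2, had 5.10 to 5.47 CPM in controls and 3.16 to 3.76 CPM in aPU.1KO mice (log2 fold change -0.63, SE 0.16, DESeq2 adjusted p 0.0235), and Rora overlapped (log2 fold change 0.16).

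**Figure D5:**
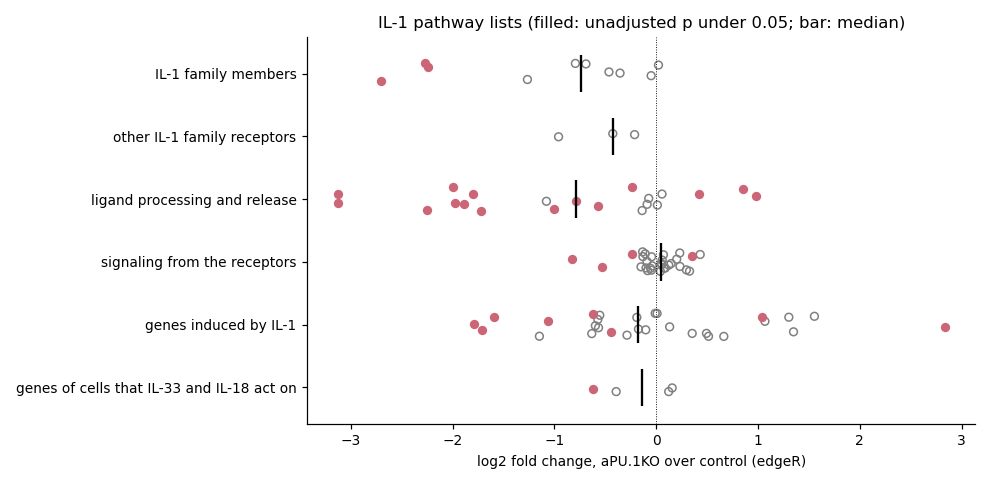
Log2 fold change (x axis, edgeR, aPU.1KO over control) of each tested gene in the IL-1 family and in 5 pathway lists, 1 point per gene, filled where the unadjusted p was under 0.05, with bars at list medians. The processing and release genes spread to the left (median -0.79), and the signaling genes gather around 0 (median 0.045).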

How the data were processed

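RNA-seq of adipocytes from 3 control and 3 aPU.1KO mice was analysed, 1 library per mouse. The deposited table holds estimated counts, which the authors made with Salmon (validateMappings) by adding up transcripts of a gene. The labels' processing notes also name FastQC and GRCm38. The Salmon version and its annotation are not given in the sources used here. The deposited values are whole numbers and were used unchanged. Symbols and coordinates are from GENCODE M21 (GRCm38), which matched 35031 of 35122 identifiers. Replicates were checked for duplicates and none was found (lowest chi-square/df within a group 20.4).

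Genes were tested in R 4.3.3 with edgeR 4.0.16 (filterByExpr with a minimum count of 10, TMM, glmQLFit, glmQLFTest, Benjamini-Hochberg adjustment over 13925 genes). Each SE is the absolute log2 fold change divided by the square root of its F statistic. Log2 CPM for likeness used a prior count of 2. The pipeline was tested on simulated data. Alternatives were DESeq2 1.42.0 on the whole table, limma-voom (limma 3.58.1), RLE and upper quartile factors, other filters, robust dispersion, legacy = FALSE and leaving out each mouse. Ratios were compared by exact two-sided permutation. Python 3.11.15 with matplotlib 3.10.9 served for figures.

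The genes named are the 10 IL-1 family genes, Spi1, 6 pathway genes named in any case, the 3 genes most like each family gene, and, from each pathway list, the 2 lowest and 2 highest log2 fold changes at an average log2 CPM of at least 1. Il1f9, Mmp3, Elane, further list and marker genes given with a filter or a marker sum, and the genes in opposite-strand overlaps are named outside this rule, after their values were seen. The IL-1 family genes and all lists were chosen with earlier results of these data known.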

Additional observations from a re-analysis of the deposited data

How the results depend on the processing

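Over the alternatives, 130 of 135 fold changes of IL-1 family genes kept their direction. The exceptions were all of Il18bp, whose log2 fold change was -0.00401 with 10 counts required in every library, -0.0322 with limma-voom, and -0.197 to 0.279 when single mice were left out. The number of IL-1 family genes called was 0 in the reported fit, 1 without a low-count filter (Il1rn), 2 with DESeq2 and 0 to 2 when single mice were left out, with 2 (Il1b and Il1rn) only without control mouse 2. Over all tested genes edgeR called 33 in the reported fit, 146 without a filter, 1193 without control mouse 2 and 0 to 8 without any other single mouse, and DESeq2 called 1833. The number lower at an unadjusted p under 0.05, 3 in the reported fit, was 5 with DESeq2 and with limma-voom and 6 with legacy = FALSE. When single mice were left out it was 2 to 4, with 2 without control mouse 1 or 3. The number below every control library, 5 as reported, was 5 to 8 when single mice were left out, with 8 without control mouse 2. With fewer libraries, groups separate more readily. Of the pathway genes, DESeq2 called 18, among them Mmp3, which edgeR's filter removed, and edgeR 0 to 12 when single mice were left out, with 12 without control mouse 2. Pathway genes lower at an unadjusted p under 0.05 numbered 12 to 27 in the same way (12 without control mouse 1, 14 without control mouse 3), and those higher 3 to 15 (3 without control mouse 1, 15 without aPU.1KO mouse 3). For the alternatives, shares over all tested genes at an unadjusted p or without overlap were not taken, so such counts have no background. The difference in the log2 ratio of Il1a to Il1rn ran from -0.916 to 1.08 when single mice were left out, and that of Il33 to Il1rl1 from -1.73 to 0.137. The cause of these moves was not tested. Il1a, Il1r2 and Il33 could not be fitted with 10 counts required in every library, and Il1a also dropped below the filter without control mouse 1 or 3. No paired analysis was made: the study describes littermate controls, but the labels do not say which mice shared a litter. Depth limits Il1a, Il1r2 and Il33, which had 16 counts or fewer in every aPU.1KO library, so that a difference there rests on few reads. With 3 libraries per group, no ratio test could give a p below 0.1.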
